A study of Mus musculus with 6 samples.

Results

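The genes considered here encode the proteins of the mitochondrial ribosome. They were taken as every row of the expression table whose symbol is Mrpl or Mrps followed by a number and at most 1 letter, which gave 78 of 20591 genes, 49 named for the large subunit (Mrpl) and 29 for the small subunit (Mrps). Expression was measured by bulk RNA sequencing of mouse B cells sorted from the colon, with 3 libraries from mice given DMSO, the solvent control, and 3 from mice given lenvatinib, an inhibitor of the VEGF and FGF receptors and of several other receptor tyrosine kinases. The series title places the comparison in work on lenvatinib, colitis and the trafficking of B cells into the gut. The labels give cell type and treatment and number the libraries as biological replicates. Dose, duration, strain, age, the markers of the sort and the number of animals behind a library are not given in the sources used here, so a p-value here reflects only how far the libraries of a group scatter, and that scatter may be technical.

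Mitochondria keep a ribosome of their own, which descends from that of a bacterial ancestor and makes the core membrane proteins of the respiratory chain and of ATP synthase from mitochondrial mRNAs. Its ribosomal RNAs are encoded in the mitochondrial genome, whereas its proteins are encoded in the nucleus, made in the cytosol and imported. The small subunit binds the mRNA and reads the codons, and the large subunit forms the peptide bond and holds the exit tunnel. Some of the proteins have bacterial counterparts and others were added during the evolution of mitochondria. In B cells, activation is known to raise the demand for mitochondrial protein synthesis.

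Levels are given as scaled FPKM, the number of fragments of a gene relative to its length and to the total of the library, after a small adjustment that puts the 6 libraries on a common scale. The depth recovered from the FPKM steps was 26635279 to 31655500 reads per library, and the 78 genes took 0.182 to 0.191% of the reads in the DMSO libraries and 0.198% in each lenvatinib library. All 78 passed the filter on low values. The summed levels of markers of other cell types and of B lineage states moved with the treatment. The counts of markers called stand beside 10.5% called higher and 8.22% called lower among all 9936 tested genes. The summed scaled FPKM of 9 T cell markers in the table lay at 44.6 to 48.3 with DMSO and at 130.7 to 134.4 with lenvatinib, and 6 of the 9 tested were higher. For 10 NK and innate lymphoid markers the sums were 23.6 to 25.4 and 104.0 to 110.9, with 8 of 8 tested markers higher, and Ncr1 was at 0 in 1 DMSO library. For 13 colon epithelial markers they were 14.7 to 15.9 and 68.3 to 73.9, with 9 of 9 tested markers higher, and Krt20 was at 0 in 2 DMSO libraries. Markers of macrophages and dendritic cells summed to 200.7 to 212.3 and 233.4 to 243.6, with 3 of 11 tested markers higher (27.3%). The 16 B cell identity genes were abundant in both groups, and their sums were 3758 to 3809 with DMSO and 3208 to 3258 with lenvatinib, with 13 of 16 lower. The 19 proliferation genes summed to 381.3 to 393.2 and 451.1 to 458.4, with 5 of 19 higher (26.3%) and 0 lower. Their log2 changes ran from -0.35 to 0.37. The groups lay apart in 10 genes that rose and 2 that fell (63.2%, against 37.1% of all tested genes). The 7 plasma cell genes summed to 364.3 to 367.3 and 336.8 to 353.3, with Irf4 lower (log2 change -0.39) and Jchain higher (0.45) among 6 tested, and Tnfrsf17 was at 0 in 2 DMSO libraries. In bulk RNA, fewer cells of a type and less RNA per cell cannot be told apart, and the part of these shifts in the changes described here was not tested.

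Of the 78 mitochondrial ribosomal protein genes, 3 were higher with lenvatinib and 1 was lower. The higher ones were Mrps6 of the small subunit and Mrpl12 and Mrpl46 of the large subunit, and the lower one was Mrpl44 of the large subunit. These 4 genes are 5.13% of the members, and the same test called 18.7% of all 9936 tested genes, 10.5% higher and 8.22% lower. Among the 8752 tested genes whose mean level lay within the members' range, it called 16.2%. The test was limma on log2(scaled FPKM + 1), two-sided, with Benjamini-Hochberg adjustment across the 9936 genes and a threshold of 0.05. By subunit, 2 of 49 large subunit genes were higher and 1 was lower (6.12% called), and 1 of 29 small subunit genes was higher and 0 were lower (3.45% called; 0 small subunit genes were also lower at an unadjusted p under 0.05 and by limma-voom).

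**Figure D1:**
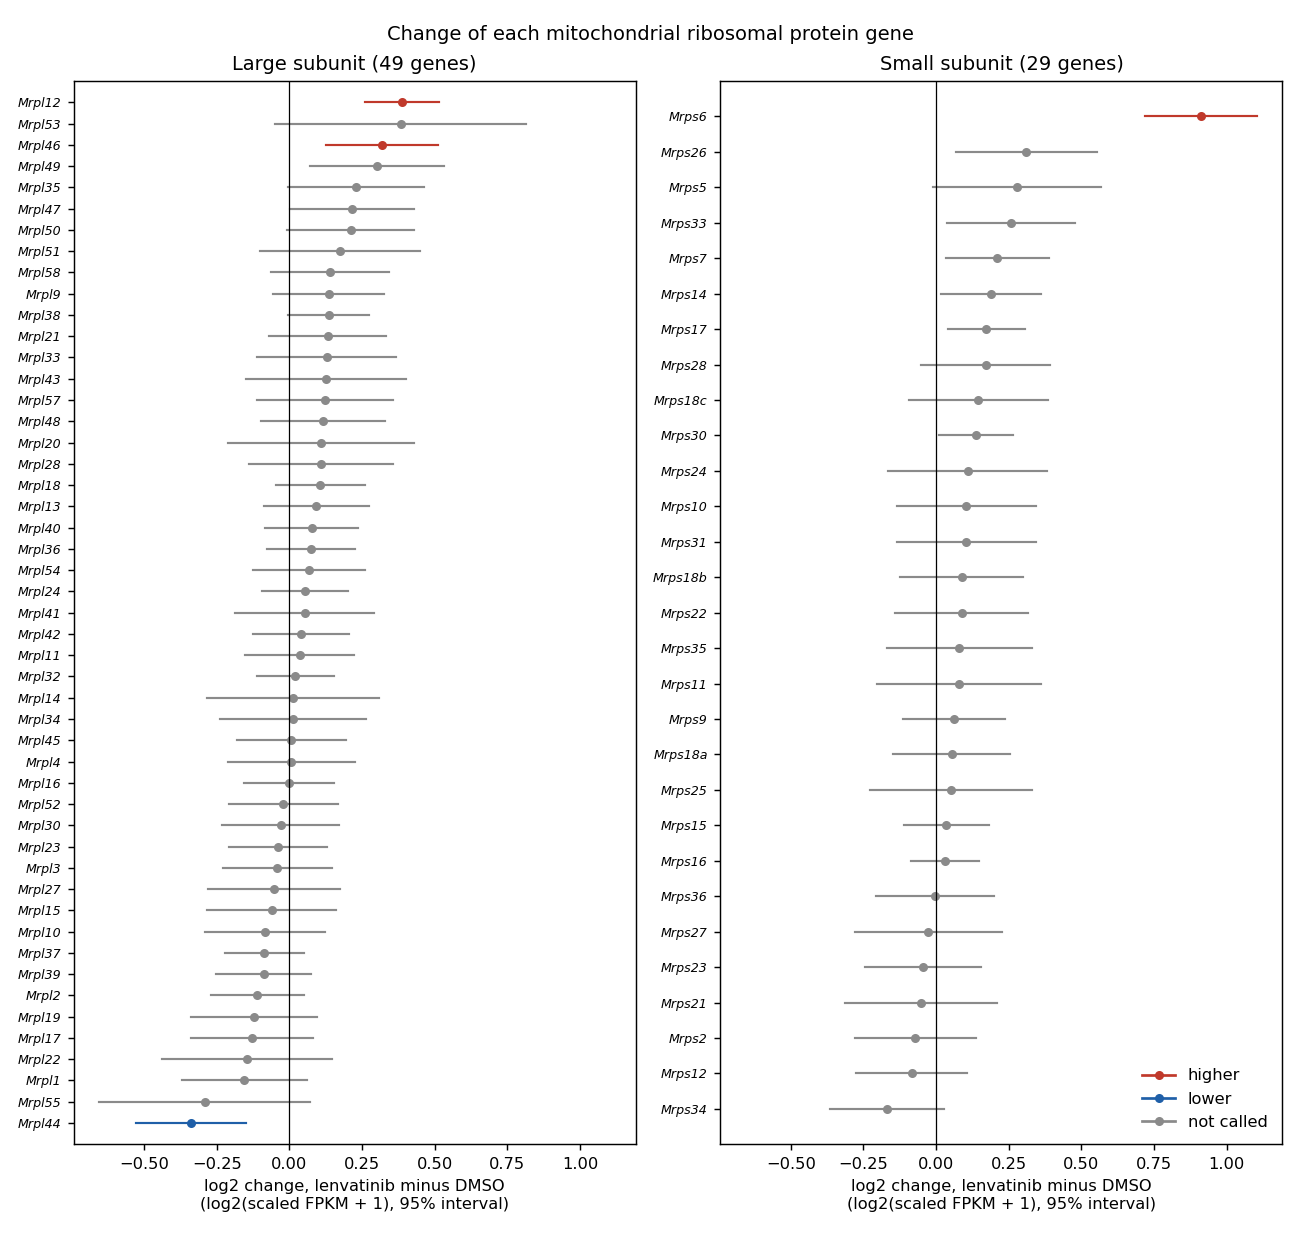
Log2 change (lenvatinib minus DMSO, on the log2(scaled FPKM + 1) scale) of each of the 49 large and 29 small subunit genes, with its 95% interval, ordered by size within each subunit. Red marks the 3 genes called higher, blue the 1 called lower and grey the 74 not called; Mrps6 stands to the right of every other member.

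The remaining 74 genes did not pass. For 69 of them the 95% interval of the log2 change lay within 0.5 in both directions, and the exceptions were Mrpl49, Mrpl53, Mrpl55, Mrps5 and Mrps26. The lowest bound of any of the 74 was -0.65, for Mrpl55, and the highest was 0.81, for Mrpl53. A change was positive in 54 of the 78 genes (69.2%) and in 51.5% of all tested genes. At an unadjusted p under 0.05 the count was 11 higher and 1 lower, 15.4% of the members against 32.2% of all tested genes. In 11 genes every lenvatinib library lay above every DMSO library and in 2 every one lay below, together 16.7% of the members, and this held for 37.1% of all tested genes. The median standard error of the log2 change was 0.092 among the members and 0.083 among all tested genes.

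Mrps6, the counterpart of the bacterial small subunit protein S6, had the highest log2 change of the 78. Its scaled FPKM was 8.87, 11.1 and 9.17 in the DMSO libraries and 20.2, 18.4 and 18.6 in the lenvatinib libraries. All 3 lenvatinib libraries lay well above all 3 DMSO libraries. The means were 9.71 ± 1.2 and 19.1 ± 1.0 (SD, n = 3 each), 1.97-fold, and the log2 change was 0.91 with a standard error of 0.085 (limma adjusted p = 0.000106). It rested on 183 to 269 reads per DMSO library and 402 to 504 reads per lenvatinib library. The call was kept under each of the 15 alternatives run, with log2 changes of 0.86 to 1.00.

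Mrps6 has its annotated start close to that of Slc5a3, a sodium-dependent transporter of myo-inositol, and exons of the 2 genes overlap on the same strand. Slc5a3 read 2.21, 2.30 and 2.57 with DMSO and 4.38, 4.31 and 4.22 with lenvatinib, and its groups did not overlap either. The means of Slc5a3 were 2.36 ± 0.19 and 4.30 ± 0.08 (SD, n = 3 each). Its log2 change was 0.66 with a standard error of 0.091 (limma adjusted p = 0.00106). The 1 added before taking logs lowers this change more than that of Mrps6, whose level was higher. How the counting treated reads from shared exons is not given in the sources used here, so reads from the overlap could count for either gene, for both or for neither. The RefSeq promoter window of Mrps6, from 250 bases before its annotated start to 50 after it, lies at chr16:92058086-92058385 on the plus strand of GRCm38.p6 and has 286 of its 300 bases in common with the window of Slc5a3. It is shown because it covers the annotated starts of 2 genes that rose. The capitals mark TGCGCA, the palindromic core of the sites of NRF1, a transcription factor of many nuclear genes for mitochondrial proteins, 62 bases before the Mrps6 start.
Mrps6 window: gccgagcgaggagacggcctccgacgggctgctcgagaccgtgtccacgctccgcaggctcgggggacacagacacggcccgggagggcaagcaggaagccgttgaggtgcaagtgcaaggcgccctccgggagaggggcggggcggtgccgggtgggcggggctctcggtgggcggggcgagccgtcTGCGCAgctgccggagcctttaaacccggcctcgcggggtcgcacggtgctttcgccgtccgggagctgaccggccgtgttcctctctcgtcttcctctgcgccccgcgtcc

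The other small subunit genes with an unadjusted p under 0.05 were Mrps17, Mrps26, Mrps7, Mrps33, Mrps14 and Mrps30, and none passed the limma test on FPKM after adjustment. Limma-voom on recovered reads called Mrps26 (adjusted p = 0.0418) and Mrps7 (adjusted p = 0.0265) higher, and limma with a replicate block called Mrps26 (adjusted p = 0.0489). Mrps17, a bacterial-type protein, read 16.1, 16.2 and 15.3 with DMSO and 18.9, 18.0 and 17.2 with lenvatinib, a log2 change of 0.17 with a standard error of 0.059 (limma adjusted p = 0.0725). Mrps26, a protein added in mitochondria, read 19.5, 28.02 and 23.3 against 28.8, 30.5 and 28.4, a log2 change of 0.31 with a standard error of 0.11 (limma adjusted p = 0.0763). In both genes the groups did not overlap, but in Mrps26 the second DMSO library came close to the lenvatinib libraries, and without it the limma adjusted p was 0.00817. Mrps7, whose bacterial counterpart starts the folding of the small subunit RNA head, read 32.9, 41.3 and 40.1 against 42.7, 45.6 and 43.8 (log2 change 0.21, limma adjusted p = 0.095). Mrps33 and Mrps14 had log2 changes of 0.26 and 0.19 (limma adjusted p = 0.0995 and 0.119), again without overlap between the groups. At the other end of the small subunit stood Mrps34, a protein added in mitochondria, with 30.1, 33.2 and 30.7 against 30.2, 29.7 and 23.8. Its groups overlapped, with 1 lenvatinib library below the rest, and its log2 change was -0.17 (95% interval -0.37 to 0.03, limma adjusted p = 0.217).

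Mrpl12 encodes the protein of the flexible stalk that brings translation factors to the large subunit. Its scaled FPKM was 37.3, 38.6 and 33.7 with DMSO and 46.2, 49.4 and 48.6 with lenvatinib. Every lenvatinib library lay above every DMSO library. The means were 36.5 ± 2.53 and 48.0 ± 1.67 (SD, n = 3 each), 1.31-fold, with a log2 change of 0.39 and a standard error of 0.057 (limma adjusted p = 0.00145). This call, too, was kept under all 15 alternatives, with log2 changes of 0.33 to 0.43. In the annotation used, no other gene of the table starts head to head with Mrpl12 within 1000 bases and no exon of one overlaps it.

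Mrpl46, a large subunit protein added in mitochondria, read 14.2, 17.8 and 17.9 with DMSO and 21.4, 21.3 and 20.01 with lenvatinib. The groups did not overlap, and 1 DMSO library lay below the other two. The means were 16.6 ± 2.09 and 20.9 ± 0.77 (SD, n = 3 each), 1.26-fold, with a log2 change of 0.32 and a standard error of 0.086 (limma adjusted p = 0.0308). The call was lost without DMSO replicate 1 (0.22, limma adjusted p = 0.0534), without lenvatinib replicate 1 or 2 (0.30 and 0.31, 0.0895 and 0.09), and under 4 other alternatives, whose limma adjusted p lay between 0.0502 and 0.104. Mrpl46 starts head to head with another member, Mrps11 of the small subunit, and exons of the 2 genes overlap on opposite strands. Mrps11 read 11.6, 9.53 and 10.8 with DMSO and 11.02, 9.39 and 13.8 with lenvatinib, so its groups overlapped, and its log2 change was 0.08 (limma adjusted p = 0.714). The difference between the 2 genes' changes was not tested. The promoter windows of the 2 genes have 141 bases in common, which are in capitals in the Mrpl46 window, at chr7:78783040-78783339 on the minus strand of GRCm38.p6. It is shown because a called and an uncalled member share it.
Mrpl46 window: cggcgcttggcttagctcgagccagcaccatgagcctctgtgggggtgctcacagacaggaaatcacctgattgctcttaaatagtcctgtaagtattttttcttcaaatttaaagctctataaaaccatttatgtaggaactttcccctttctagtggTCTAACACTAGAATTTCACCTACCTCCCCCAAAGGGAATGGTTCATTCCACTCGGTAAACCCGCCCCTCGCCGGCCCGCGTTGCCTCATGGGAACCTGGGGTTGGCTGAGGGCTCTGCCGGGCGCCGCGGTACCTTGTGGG

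Mrpl44, added in mitochondria and related in fold to RNase III, was the only member called lower. It read 10.35, 10.31 and 11.31 with DMSO and 7.875, 7.614 and 9.245 with lenvatinib. Every lenvatinib library lay below every DMSO library, with lenvatinib replicate 3 nearest to them. The means were 10.7 ± 0.56 and 8.24 ± 0.88 (SD, n = 3 each), 0.774-fold, with a log2 change of -0.34 and a standard error of 0.084 (limma adjusted p = 0.0221). The call was lost without DMSO replicate 3 (-0.30, limma adjusted p = 0.0752), without lenvatinib replicate 1 (-0.31, 0.0705) or 2 (-0.29, 0.0756), with no filter on low values (0.0669) and by limma-voom on recovered reads (0.0613). Over all alternatives the limma adjusted p ran from 0.0105 to 0.0756. Wdfy1, which starts head to head with Mrpl44 and overlaps it on the other strand, read 3.62, 3.42 and 3.63 against 3.49, 3.34 and 3.11 (log2 change -0.08, limma adjusted p = 0.581). Use of strand in the counting is not given in the sources used here, so reads from the overlap could count for either gene. The Mrpl44 window is given as that of the one member that fell, at chr1:79775768-79776067 on the plus strand of GRCm38.p6, with the same NRF1 core in capitals 36 bases before the start.
Mrpl44 window: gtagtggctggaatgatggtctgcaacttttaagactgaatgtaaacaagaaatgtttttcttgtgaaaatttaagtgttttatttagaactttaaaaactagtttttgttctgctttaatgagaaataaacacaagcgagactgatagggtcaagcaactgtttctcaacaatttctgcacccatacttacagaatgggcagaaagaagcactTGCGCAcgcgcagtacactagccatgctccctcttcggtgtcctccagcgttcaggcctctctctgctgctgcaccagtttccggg

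**Figure D2:**
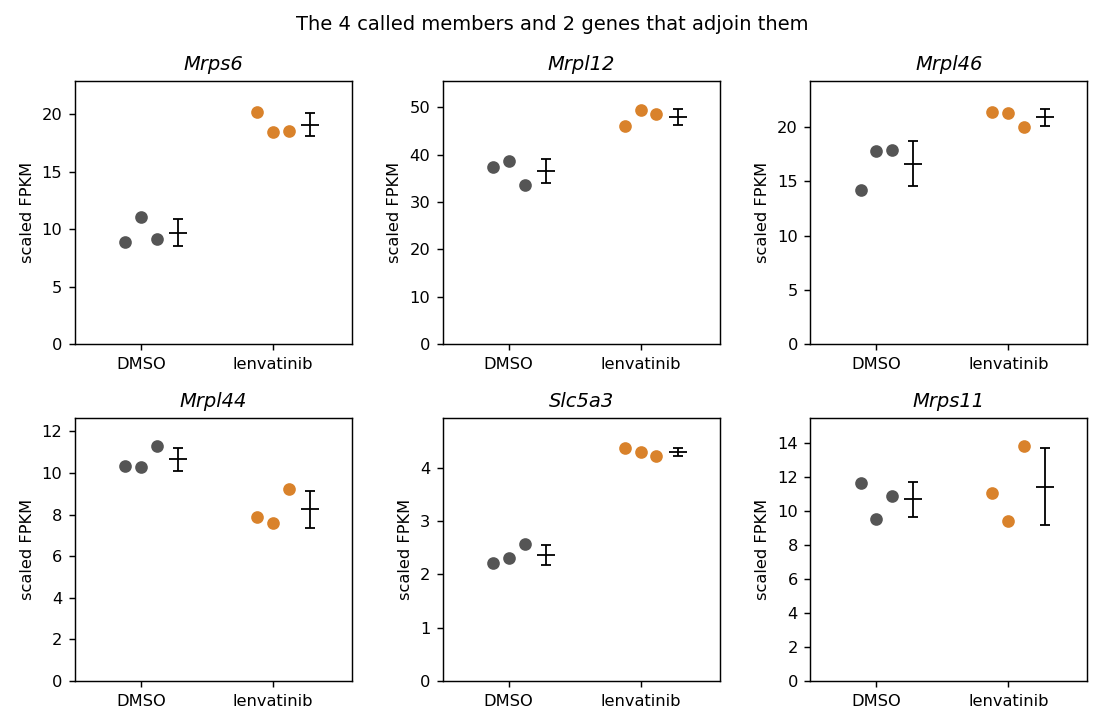
Scaled FPKM in each library (points; grey DMSO, orange lenvatinib) with the mean and SD (bars, n = 3) for the 4 called members and for 2 genes that adjoin them. The groups are apart in Mrps6, Mrpl12, Mrpl46, Mrpl44 and Slc5a3, whereas those of Mrps11 overlap.

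Among the large subunit genes that were not called, Mrpl49, added in mitochondria, came nearest to the threshold, with 9.66, 11.6 and 9.08 against 14.2, 11.3 and 12.5. Its groups overlapped, and the log2 change was 0.30 with a standard error of 0.10 (limma adjusted p = 0.0726). Among the alternatives, only the one without DMSO replicate 2 called Mrpl49. Mrpl47 read 8.89, 9.95 and 8.59 against 9.81, 12.3 and 10.3 (log2 change 0.22, limma adjusted p = 0.149). Mrpl53 had a log2 change of 0.38, nearly that of Mrpl12, but it read 15.7, 21.1 and 11.8 against 17.9, 26.3 and 19.2, and its standard error was 0.19 (limma adjusted p = 0.204). The wide scatter of Mrpl53 spanned both groups. In Mrpl50, Mrpl58 and Mrpl18 every lenvatinib library lay above every DMSO library, and in Mrpl1 every one lay below, with log2 changes of 0.21, 0.14, 0.11 and -0.16 that did not pass.

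Transcripts of the members often adjoin other genes. In the mouse annotation used for this, 35 members start head to head with another gene of the table within 1000 bases, 24 have an exon that overlaps one, and 40 have either. Only Mrps6, Mrps24 and Mrps34 have such an overlap on the same strand. Of 37 tested neighbours that are not members, 2 were higher and 2 lower, a smaller share than the 18.7% called among all 9936 tested genes. Only 1 of these 4, Slc5a3, adjoins a called member. Klc4, a kinesin light chain head to head with Mrpl2, rose from 7.22 ± 0.37 to 9.91 ± 0.94 (SD, n = 3 each; log2 change 0.41, limma adjusted p = 0.00865), and Mrpl2 had a log2 change of -0.11. Mitd1, head to head with Mrpl30, fell from 8.73 ± 0.47 to 6.46 ± 0.89 (log2 change -0.39, limma adjusted p = 0.0212), and Mrpl30 had a log2 change of -0.03. Gga3, an adaptor of vesicle transport, overlaps Mrps7 on the other strand and fell from 17.8 ± 0.46 to 15.3 ± 0.12 (log2 change -0.21, limma adjusted p = 0.0226), with Mrps7 at 0.21.

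The rule names a gene's subunit by its symbol, which differs from its place in the ribosome for a few members. Mrps18a, Mrps18b and Mrps18c are related copies of the bacterial S18 protein, and Mrps18a and Mrps30 sit in the large subunit of the known structures. Mrps18c had the highest level of the small subunit genes, 66.0, 69.8 and 49.6 with DMSO and 69.3, 65.5 and 68.4 with lenvatinib, with 1 low DMSO library and overlapping groups (log2 change 0.15, limma adjusted p = 0.386). Mrps18a and Mrps18b had log2 changes of 0.05 and 0.09 (limma adjusted p = 0.725 and 0.568). Mrps30 read 26.6, 28.6 and 26.1 against 28.1, 30.5 and 31.1 (log2 change 0.14, limma adjusted p = 0.132). Mrpl58, a peptidyl-tRNA hydrolase that frees stalled ribosomes, went from 3.60 ± 0.24 to 4.08 ± 0.24 (log2 change 0.14, limma adjusted p = 0.322). Mrps36, known as a part of the 2-oxoglutarate dehydrogenase complex and not of the ribosome, read 12.9, 15.3 and 16.7 against 14.9, 15.7 and 14.0, a log2 change of -0.004. With genes placed by structure the counts of calls were as before, and the median log2 change was 0.05 in the large and 0.09 in the small subunit.

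The typical change of the members was small. The median log2 change was 0.07 over all 78, 0.05 in the large and 0.09 in the small subunit, beside 0.007 over all tested genes. Both subunit medians were above 0 under every alternative run, between 0.03 and 0.07 for the large and between 0.06 and 0.12 for the small subunit. The summed scaled FPKM of the large subunit genes was 868.2, 870.8 and 839.0 with DMSO and 906.3, 906.8 and 905.0 with lenvatinib, 1.05-fold. That of the small subunit genes was 519.2, 553.5 and 506.7 against 565.2, 568.6 and 571.3, 1.08-fold. In both sums the lenvatinib libraries lay close together and above all DMSO libraries. Without Mrps6 the small subunit sum was 510.3, 542.4 and 497.6 against 545.0, 550.2 and 552.7, 1.06-fold, and the groups then overlapped when libraries were scaled to the sum of FPKM (1.04-fold). Since the members and the other genes of a library share its scaling, these sums carry no test here.

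**Figure D3:**
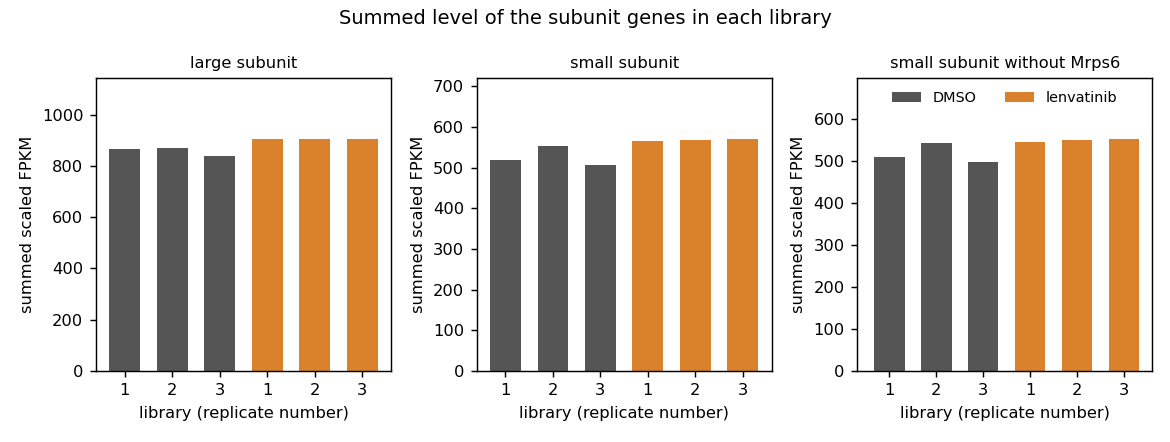
Summed scaled FPKM of the 49 large subunit genes, the 29 small subunit genes and the small subunit genes without Mrps6, in each library (grey DMSO, orange lenvatinib, numbered by replicate; axes start at 0). The lenvatinib bars are 1.05, 1.08 and 1.06 times the DMSO bars on average.

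The subunits were set against each other within each library. The ratio of the large to the small subunit sum was 1.672, 1.573 and 1.656 with DMSO and 1.604, 1.595 and 1.584 with lenvatinib, and the groups overlapped. The mean log2(scaled FPKM + 1) of the large subunit genes minus that of the small subunit genes was -0.06, -0.13 and -0.13 with DMSO and -0.19, -0.14 and -0.19 with lenvatinib. The lenvatinib libraries were lower by 0.06 on average, with 1 of them just below 2 of the DMSO libraries. That gap rested in part on Mrps6: without it, an alternative chosen after seeing the data, the values were -0.09, -0.15 and -0.15 against -0.17, -0.13 and -0.18, so the groups overlapped and the gap was 0.03. The values with Mrps6 gave a gap of 0.04 without DMSO replicate 1. The difference between the subunits' changes carries no test here, since it is a score over chosen members. By origin, 2 of 48 members with a bacterial counterpart were higher and 0 lower, with a median log2 change of 0.05, and of 29 members added in mitochondria 1 was higher and 1 lower, with a median of 0.09. At an unadjusted p under 0.05 there were 6 genes in each of these classes, 12.5% and 20.7% of their members. Over all tested genes 18.7% were called and 32.2% had such a p.

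Levels within the family spanned 56.9-fold, from a mean scaled FPKM of 1.15 for Mrpl14 to 65.2 for Mrpl52, with a median of 14.0. The highest large subunit genes were Mrpl52, Mrpl33 and Mrpl9, at means of 65.2, 55.7 and 44.8, and the lowest were Mrpl14, Mrpl1 and Mrpl4, at 1.15, 2.96 and 3.51. In the small subunit Mrps18c, Mrps7 and Mrps16 led with 64.8, 41.1 and 34.0, and Mrps25, Mrps35 and Mrps10 came last with 1.52, 3.33 and 3.81. Neighbours in this order often did not differ beyond their spread: Mrpl52 read 57.9 to 72.3 and Mrps18c 49.6 to 69.8 over the 6 libraries. At the bottom Mrpl14, with 0.924 to 1.43, overlapped Mrps25, which read 1.29 to 1.82. None of these 12 genes was called by the limma test on FPKM, and the largest log2 change among them was 0.21, for Mrps7. Limma-voom on recovered reads called Mrps7 (adjusted p = 0.0265), and the limma test without lenvatinib replicate 1 called Mrpl9 (adjusted p = 0.0488).

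The order by level followed the gene length by which the counts had been divided. Read counts spanned only 9.36-fold, from a mean of 226 to 2116 reads. Spearman's rho across the 78 genes was -0.698 between length and mean scaled FPKM and 0.216 between length and mean reads; genes are not independent replicates, length enters the FPKM itself, and no p is given. Mrpl14, at a length of 7525 bases, had 184 to 335 reads per library, whereas Mrpl52, at 412 bases, had 693 to 936. Mrpl3 and Mrpl4 had the longest lengths, 8707 and 8452 bases. The lengths are those recovered from the FPKM steps, and a length that holds more bases than the transcript made in these cells lowers the FPKM, so the order of levels across members is less firm than the comparison of 1 gene between groups. Within a group, members had a median coefficient of variation of 8.56% with DMSO and 9.59% with lenvatinib, and counting error alone would give 3.85%.

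**Figure D4:**
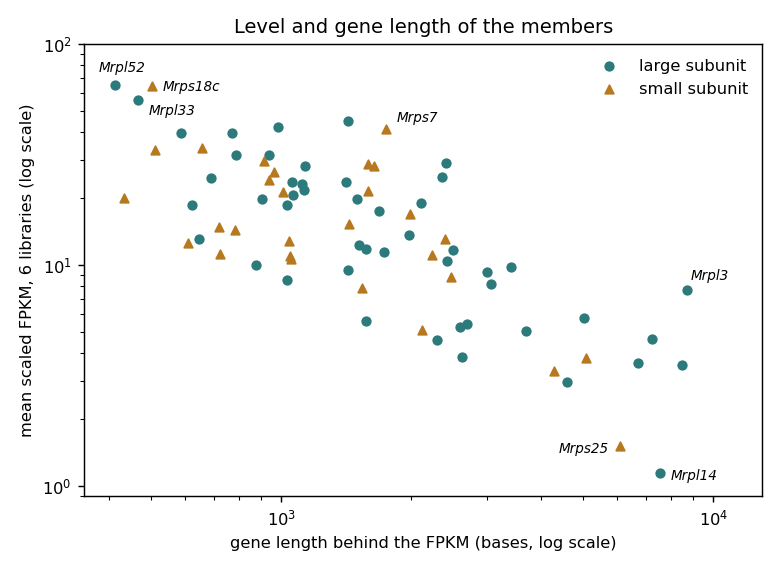
Mean scaled FPKM over the 6 libraries against the gene length behind the FPKM, both on log axes, for 49 large (circles) and 29 small (triangles) subunit genes. Longer genes have lower FPKM (Spearman's rho -0.698), with Mrpl52 at the upper left and Mrpl14 at the lower right.

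Both ribosomes of the cell and the respiratory chain can be set side by side. Of 81 tested genes for cytosolic ribosomal proteins, 18 were higher and 0 lower (22.2% called), with a median log2 change of 0.05; Rps2 rose from 1578 ± 17.9 to 1825 ± 32.5 (SD, n = 3 each; log2 change 0.21, limma adjusted p = 0.000237). Of 78 nuclear genes for the respiratory chain and ATP synthase, 32 were higher and 0 lower (41.0% called), with a median of 0.15; Atp5b, the catalytic beta subunit of ATP synthase, rose from 281.8 ± 5.14 to 327.1 ± 3.91 (log2 change 0.21, limma adjusted p = 0.00052). Ndufc2 and Ndufa9 of complex I rose by 0.43 and 0.30 on the log2 scale. The cytosolic ribosomal protein genes had a median change close to that of the mitochondrial ones and more calls. Their level and precision differed: the median scaled FPKM was 1440 for the cytosolic, 60.4 for the respiratory and 14.0 for the mitochondrial ribosomal genes, and the median standard errors were 0.032, 0.057 and 0.092. The summed levels were 1.049-fold, 1.103-fold and 1.064-fold those of DMSO. The differences between these groups of genes were not tested.

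**Figure D5:**
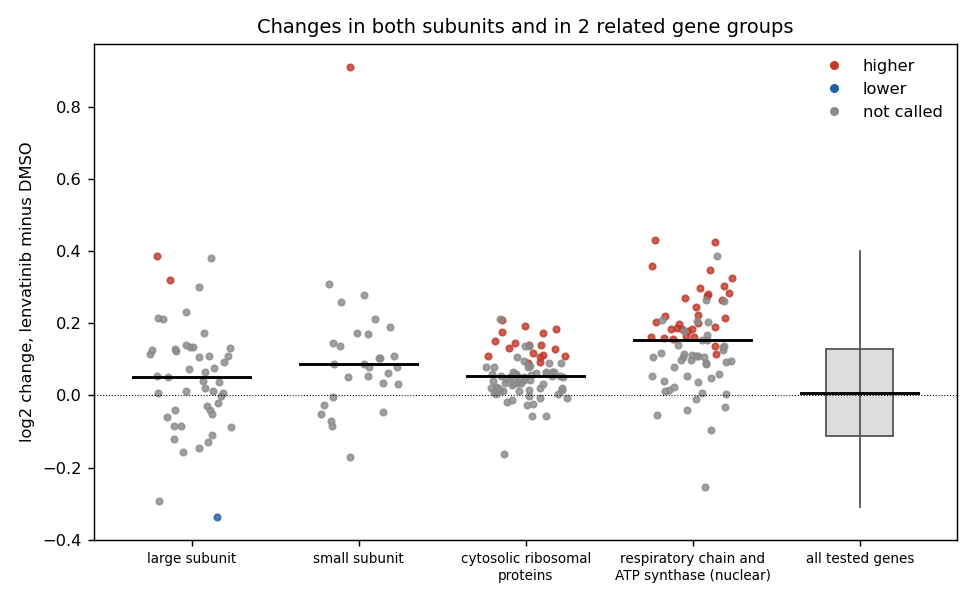
Log2 change (lenvatinib minus DMSO) of each gene of both mitochondrial subunits, of the cytosolic ribosomal proteins and of the nuclear respiratory chain and ATP synthase genes, with the median as a black line; the last column gives the median, quartiles (box) and 5th to 95th percentiles (line) of all 9936 tested genes. The medians are 0.05, 0.09, 0.05, 0.15 and 0.007.

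The machinery around the mitochondrial ribosome is given from lists of genes, beside the 18.7% called and the 37.1% without overlap among all tested genes. Among 5 mitochondrial ribosomal proteins that carry other symbols, Aurkaip1 rose from 31.4 ± 2.19 to 36.8 ± 1.55 (SD, n = 3 each; log2 change 0.22, limma adjusted p = 0.0304), a call lost under 7 of 15 alternatives, and Chchd1, Gadd45gip1, Ptcd3 and Dap3 did not pass. Of 25 tested assembly and rRNA modification factors, 3 were higher and 0 lower (12% called, 40% without overlap between the groups). These were Rpusd4, a pseudouridine synthase of the large rRNA, from 14.1 ± 0.77 to 18.4 ± 1.14 (log2 change 0.36, limma adjusted p = 0.00521), C1qbp, from 66.7 ± 4.58 to 80.5 ± 3.29 (0.27, 0.00836), and Rcc1l, from 4.70 ± 0.02 to 6.03 ± 0.70 (0.30, 0.0498). The call of Rcc1l was lost under 9 of 15 alternatives. The GTPase gene Mtg1 had a log2 change of 0.38 and did not pass (limma adjusted p = 0.0661).

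None of the 18 translation factors and their partners passed the limma test on FPKM. An unadjusted p under 0.05 was found in 5 of the 18, a smaller share than the 32.2% of all tested genes. Limma-voom on recovered reads called Mtrf1l higher and Oxa1l lower (adjusted p = 0.0287 and 0.0169). Mtrf1l, a release factor, went from 3.78 ± 0.50 to 5.28 ± 0.78 (SD, n = 3 each; log2 change 0.39, limma adjusted p = 0.0502), and Tufm, the elongation factor that brings charged tRNA, from 21.1 ± 1.17 to 23.5 ± 0.93 (0.15, 0.107). Oxa1l, which inserts the new proteins into the inner membrane, had a log2 change of -0.24 (limma adjusted p = 0.0711). Slirp went from 29.3 ± 2.81 to 33.5 ± 1.92 (log2 change 0.19, limma adjusted p = 0.105). Of 19 tested genes of mitochondrial transcription and RNA processing, Fastkd3 was higher, from 4.38 ± 0.18 to 5.89 ± 0.20 (log2 change 0.36, limma adjusted p = 0.0128), and 0 were lower by limma. An unadjusted p under 0.05 was found in 4 of the 19, also a smaller share than the 32.2%. Tfam, which packs mitochondrial DNA and starts its transcription, had a log2 change of -0.15 (limma adjusted p = 0.103) and was called lower by limma-voom on recovered reads (adjusted p = 0.0168). Tfb2m went from 16.65 ± 1.09 to 19.12 ± 0.49 (log2 change 0.19, limma adjusted p = 0.0586). Twnk went from 5.28 ± 0.56 to 6.23 ± 0.20 (0.21, 0.137). Neither passed the limma test on FPKM. In this list the groups lay apart in 3 genes that rose and 1 that fell (21.1%, against 37.1% of all tested genes).

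The mitochondrial ribosome's own products are the 13 proteins encoded in mitochondrial DNA, whose mRNA levels, not their translation, were measured. Beside 18.7% called among all 9936 tested genes, 15.4% of these 13 were called, 1 higher and 1 lower. Of these, ND2, a subunit of complex I, fell from 1866 ± 65.8 to 1678 ± 78.5 (SD, n = 3 each; log2 change -0.15, limma adjusted p = 0.0201). COX1, the catalytic core of complex IV, rose from 10290 ± 225 to 10920 ± 218 (log2 change 0.09, limma adjusted p = 0.029), but its change was 0.0 with quantile normalization, and each of the 2 calls was lost under at least 7 of 15 alternatives. ND6 went from 111.8 ± 12.6 to 83.9 ± 24.3 with overlapping groups (log2 change -0.45, limma adjusted p = 0.189). ND5 went from 1816 ± 11.6 to 1706 ± 124, also with overlap (-0.09, 0.192). The median log2 change of the 13 was -0.02, and 6 of the 13 changes were positive. Their mean scaled FPKM ran from 8.57 for ATP8 to 10600 for COX1, with COX2, COX3 and ATP6 at 89.2, 60.7 and 47.6. How reads of these genes were mapped and counted is not given in the sources used here, so levels across them are not firm. Of 6 tested regulators of mitochondrial genes, 1 was called (16.7%). Myc fell from 170.2 ± 1.29 to 134.5 ± 0.99 (log2 change -0.34, limma adjusted p = 3.47e-05), while Yy1 (0.16, limma adjusted p = 0.0585), Gabpa, Pprc1, Esrra and Nrf1 did not pass.

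Promoter windows were found in RefSeq (GRCm38.p6) for 69 of the 78 members. Motifs for 3 factors known for nuclear genes of mitochondrial proteins were searched on both strands of the 300 bases. A gene with a window counted once if any of its windows held a match. CCGGAAG, a core bound by ETS factors such as GABP, was found for 37.7% of these members, against 23.2% of tested genes and 9.9% of all genes. TGCGCA, the NRF1 core, was found for 30.4% of the members, against 17.3% and 8.8%. AAGATGG, a YY1 core, was found for 18.8%, against 9.2% and 7.3%. The shares were 34.9% and 42.3% (ETS), 27.9% and 34.6% (NRF1) and 16.3% and 23.1% (YY1) in the large and small subunit. An ETS and a YY1 match can share the letters AAG. Among called members, the windows of Mrps6 and Mrpl44, 1 higher and 1 lower, both hold the NRF1 core, and those of Mrpl12 and Mrpl46 hold none of the 3. A match is a run of letters in these windows and was not tested as a site.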

How the data were processed

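HTSeq and the build GRCm39 are named in the submitters' processing notes; the aligner, the annotation, versions and use of strand are not given in the sources used here. TRIzol extraction of total RNA and a VAHTS Universal V10 library kit are given in the labels' protocols. The authors deposited 1 table of FPKM values for 20591 gene symbols in 6 columns, assigned to samples through the column names that the sample descriptions quote.

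Libraries were put on a common scale by median-of-ratios factors (0.993 to 1.01). The 9936 genes that reached a scaled FPKM of 1 in 3 or more libraries were fitted as log2(scaled FPKM + 1) on treatment alone with limma 3.58.1 (R 4.3.3), using trend and robust moderation. The pseudocount of 1 makes a fold change on this scale understate that of low genes. Whole reads were recovered from the FPKM steps for 19714 of 19715 genes with any value (tolerance 1e-05). Lengths of 13 of 13 mitochondrial genes equalled the annotated ones. The annotated lengths of these genes had been used to set the library totals, so this match is no independent check. The recovered reads served for depth, gene lengths and limma-voom. Intervals of 95% come from the fit. Same-numbered replicates did not vary together (correlations -0.007 to 0.006), so they were not paired. The test and the read recovery were tested on simulated data.

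Members and gene lists were chosen with earlier results of these data known. Named were, per subunit, called members, those with the largest change each way, the 3 highest and 3 lowest in level, Mrps18a, Mrps18b, Mrps18c, Mrps30, Mrps36 and Mrpl58, and up to 4 genes of each other list with the smallest p; further members with an unadjusted p under 0.05 or groups that do not overlap, 5 with wide intervals and neighbours of members were named after their values were seen. Neighbour relations come from GENCODE gene models and windows from RefSeq, both of GRCm38, not the authors' build, so no coordinates of theirs were mixed. Alternatives changed the pseudocount, filter, scaling, replicate term, moderation, reads in place of FPKM, subunit assignment and left out each library.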

Additional observations from a re-analysis of the deposited data

How the results depend on the processing

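Under the alternatives, Mrps6 and Mrpl12 kept their calls and no member changed direction while called. The number of large subunit genes called higher, 2, was 1 with no filter on low values, 1 with neither trend nor robust moderation and 1 by limma-voom on recovered reads, and 1 to 3 when 1 library was left out. The number called lower, 1 (Mrpl44), was 0 with no filter and 0 by limma-voom, and 0 to 1 when 1 library was left out. The number of small subunit genes called higher, 1, was 2 with a replicate block and 3 by limma-voom (Mrps7 and Mrps26 added), and 1 to 2 when 1 library was left out. With the replicate block 5 members were called: Mrpl46 was lost and Mrpl53 and Mrps26 were added. Whether the numbers pair the libraries is not given in the labels. Same-numbered libraries did not vary together, and the block keeps 3 of the 4 calls. COX1 changed by 0.0 with quantile normalization, which gives the most abundant gene the same value in each library. The cause of the other shifts was not tested. With 3 libraries per group and a median standard error of 0.092, small changes of single members were not detectable: 69 of the 74 uncalled members are bounded within 0.5 on the log2 scale.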
